A study of Mus musculus with 4 samples.

Results

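The nuclei described here came from the cortex of 5-month-old C57BL/6 mice and were chosen by a rule for Lamp5 or Sncg interneurons. A barcode was taken when mitochondrial (mt-) transcripts made up at most 5% of its unique molecular identifiers (UMIs, each standing for 1 captured RNA molecule). It also needed at least 3 UMIs of Gad1, Gad2 and Slc32a1 together, more than of Slc17a7 and Neurod6, at least 5 of Adarb2 and at least 4 of Lamp5, Reln, Pde11a and Egfr together. At most 1 UMI of Vip and at most 2 of Sst were allowed. The rule found 325 of 54550 barcodes in all, of which 98 and 76 came from wildtype replicates 1 and 2, and 91 and 60 from knockout replicates 1 and 2.

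The study isolated nuclei from 2 wildtype and 2 Setdb1-CK-cKO animals and made 1 10x 3′ library from each. SETDB1 is a methyltransferase of lysine 9 of histone H3, and the knockout is conditional. The labels do not spell out CK, so neither the promoter behind the deletion nor the cells in which it acts is given in the sources used here. The animal is the unit of replication, and every comparison has n = 2 per genotype. A fit with 1 library left out is the exception, since it has n = 1 in 1 genotype.

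Cortical interneurons release GABA and restrain the activity of neighbouring neurons. The Lamp5 group includes the neurogliaform cells, many of them in the outermost layer, which make reelin and neuropeptide Y and release GABA diffusely, and the Sncg group holds basket cells with cholecystokinin and the cannabinoid receptor CB1. Both groups arise outside the medial ganglionic eminence and carry Adarb2, whereas Sst and Pvalb interneurons arise within it. SETDB1 places the trimethyl mark on lysine 9 of histone H3, a mark of silenced chromatin over repeats, germline genes and the clustered protocadherin genes.

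The chosen nuclei carried RNA of the Lamp5 group beyond the genes of the rule, but almost none of Sncg. Levels are given in CPM, the UMI count of a gene scaled to a fixed total of UMIs of that kind of nucleus in a library. TMM factors between libraries were applied except in oligodendrocyte nuclei and in subsets of the chosen nuclei. Ndnf, a secreted protein of neurogliaform cells, averaged 96.2 CPM against 7.30 CPM in the other 1051 GABAergic nuclei and 2.48 CPM in 4345 excitatory nuclei (at least 3 UMIs of Slc17a7 and Neurod6 and more than of the GABAergic genes). The receptor tyrosine kinase gene Kit measured 302 CPM against 42.3 and 6.12 CPM, and the synaptic vesicle gene Sv2c 311 against 76.3 and 19.9 CPM. Of the genes linked with the Sncg group, Sema3c (121 against 33.4 and 7.32 CPM), Cnr1, the CB1 gene (98.7 against 39.5 and 30.6 CPM), and Npas1 (41.1 against 24.5 and 6.23 CPM) were highest in the chosen nuclei. Cck did not set them apart (226 against 245 and 216 CPM). Sncg itself gave 1 UMI in all 325 nuclei. These values are a description, since Adarb2 and its companions chose the nuclei. The Sncg group in the label could not be read from Sncg RNA, so the nuclei are called Adarb2-Reln nuclei below.

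**Figure D1:**
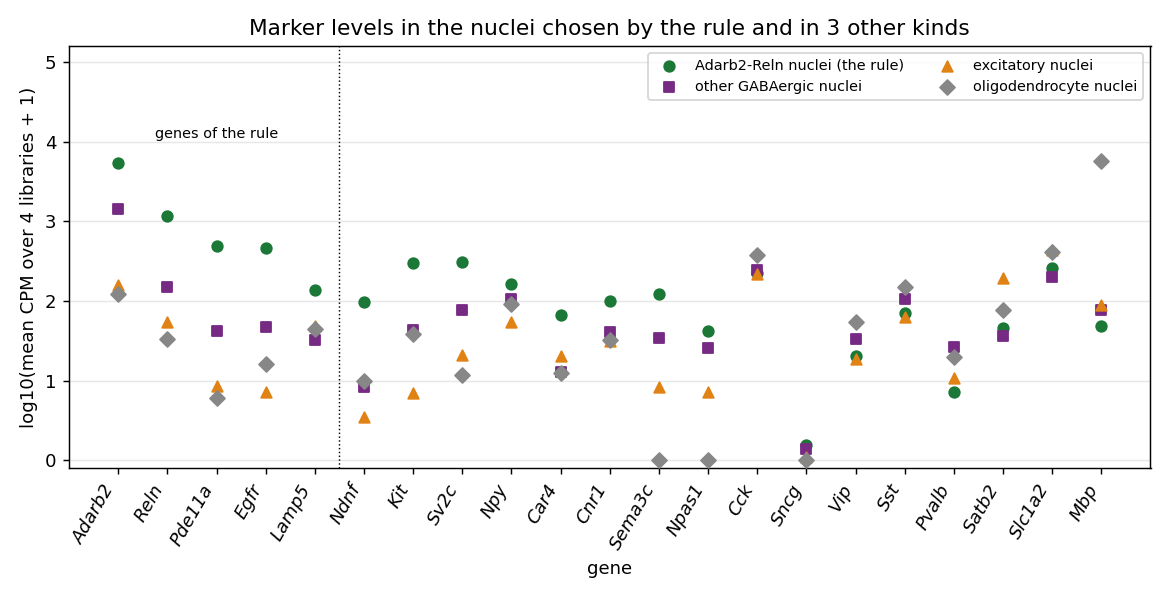
Mean level of each gene over 4 libraries, as log10(CPM + 1), in Adarb2-Reln nuclei, other GABAergic nuclei, excitatory nuclei and oligodendrocyte nuclei; the dotted line parts the genes of the rule from the rest. Ndnf, Kit, Sv2c, Car4 and Sema3c lie highest in the Adarb2-Reln nuclei, while Sncg is near 0 in all 4 kinds.

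Of the 5 genes that mark these nuclei in the rule, Adarb2 and Reln were the most abundant and Lamp5 the scarcest. Adarb2, a relative of the RNA-editing deaminases, had a median of 16 UMIs per nucleus (range 5 to 218). Reln, which encodes the secreted glycoprotein reelin, had a median of 4 UMIs and was seen in 246 nuclei. Pde11a, a cyclic nucleotide phosphodiesterase, was seen in 220 nuclei and Egfr, the receptor for epidermal growth factor, in 226, each with a median of 2 UMIs. Lamp5, a protein of endosomes and presynaptic terminals, was seen in 134 nuclei, with a median of 0 and a highest value of 6 UMIs. The nuclei were mixed in this respect: 41 showed 1 of the 4 genes Lamp5, Reln, Pde11a and Egfr, 115 showed 2, 121 showed 3 and 48 showed all 4.

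The share of nuclei with a Lamp5 UMI was 37.8% and 42.1% in wildtype and 41.8% and 45.0% in knockout (replicates 1 and 2). In excitatory nuclei, some of which express Lamp5, it was 16.5% to 20.1%. In oligodendrocyte nuclei (at least 10 UMIs of oligodendrocyte marker genes and none of Gad1, Gad2, Slc32a1, Slc17a7 and Neurod6), which should lack it, 2.5% to 11.9% had a Lamp5 UMI, at a median of 1680 UMIs per nucleus against 3742 in the Adarb2-Reln nuclei. Nuclei with and without a Lamp5 UMI carried similar mean levels of Ndnf (103 and 91.8 CPM), Kit (317 and 292 CPM) and Reln (1150 and 1210 CPM), while Cnr1 was lower with Lamp5 (59.4 against 133 CPM). Nuclei rich in Lamp5 (at least 3 UMIs) numbered 12, and nuclei rich in Cnr1 (at least 3 UMIs, with at most 2 of Lamp5) numbered 10, too few for a comparison of genotypes.

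At the edges of the rule, 13 chosen nuclei had exactly 5 Adarb2 UMIs and 6 nuclei outside had 4, with the same median of 7 UMIs for the other 4 genes. The sum of Lamp5, Reln, Pde11a and Egfr was exactly 4 in 53 chosen nuclei and 3 in 41 outside, with median Adarb2 of 14 and 17 UMIs. A further 255 GABAergic nuclei had enough Adarb2 but were left out by another condition.

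RNA of genes listed as markers of other cell types was present in these nuclei. The 10 excitatory markers summed to 1120 and 1180 CPM in wildtype and 947 and 1180 CPM in knockout, against a mean of 3040 CPM in excitatory nuclei and 1180 CPM in other GABAergic nuclei. Arpp21 was the main part (609 CPM on average, against 623 CPM in other GABAergic nuclei). Whether the nuclei transcribed the listed genes themselves was not tested. The 6 oligodendrocyte markers summed to 132 to 249 CPM in the 4 libraries, against 9180 to 11000 CPM in oligodendrocyte nuclei. In Adarb2-Reln nuclei they were higher in wildtype (249 and 208 CPM) than in knockout (132 and 134 CPM). The 6 astrocyte markers summed to 386 and 381 CPM in wildtype and 307 and 280 CPM in knockout, with Slc1a2, which neurons also transcribe, as the main part (257 CPM on average). The 7 microglial markers went the other way, with 121 and 123 CPM in wildtype and 190 and 180 CPM in knockout, led by P2ry12 (64.7 to 102 CPM), and the same list measured 127 and 131 against 146 and 178 CPM in excitatory nuclei. The 5 endothelial markers summed to 6.84 and 17.0 CPM in wildtype and 12.5 and 42.2 CPM in knockout, mostly from Pecam1 (20 UMIs in all), with Cldn5 and Slco1a4 at 0. Of the 4 fibroblast markers, which summed to 0 to 10.2 CPM, Col1a1 and Lum were at 0. The part of these in the results below was not tested.

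The libraries held 11790 to 14493 barcodes and 38314394 to 45605971 UMIs, of which the Adarb2-Reln nuclei gave 437146 and 295417 UMIs in wildtype and 395961 and 263008 in knockout. Their median depth was 3882 and 3317.5 UMIs in wildtype and 3780 and 3947.5 in knockout. Pairs of libraries shared 48 to 64 barcode sequences, and 0 of these were Adarb2-Reln nuclei in both libraries of a pair. Xist, transcribed from the inactive X chromosome, gave 0 and 328 UMIs in wildtype replicates 1 and 2 and 0 and 364 in knockout, and the Y-linked gene Uty 47, 0, 57 and 0. By these genes knockout replicate 1 was male and knockout replicate 2 female, the reverse of their listed sex, and each genotype held 1 library of either sex.

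The part of GABAergic nuclei that were Adarb2-Reln nuclei differed between genotypes by less than the spread between animals. Wildtype libraries gave 23.1% (exact 95% interval 19.2 to 27.4) and 25.6% (20.7 to 30.9), knockout libraries 21.5% (17.6 to 25.7) and 26.0% (20.4 to 32.1). The means were 24.4% ± 1.75 and 23.7% ± 3.19 (SD, n = 2), and the groups overlapped (difference -0.63 points, exact two-sided permutation p = 1.0, where 0.333 is the smallest p that 2 against 2 allows). Among nuclei of at least 5000 UMIs the difference was 4.81 points, and with a library left out it ran from -2.89 to 1.62. GABAergic nuclei as a whole were 2.93% and 2.07% of nuclei in wildtype and 3.60% and 1.66% in knockout, so both replicates 2 held fewer of them. Intervals on shares of nuclei and of UMIs cover counting error only.

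Setdb1 RNA was not measurably lower in the knockout libraries. The 4 libraries gave 36, 24, 24 and 23 UMIs, or 82.1 and 81.7 CPM in wildtype and 59.9 and 88.1 CPM in knockout, and the genotypes overlapped (log2 fold change -0.19 ± 0.299 SE, edgeR adjusted p = 0.963; 0.10 without knockout replicate 1). A 3′ tag from outside the deleted part would remain, and Setdb1 overlaps Cers2 on the other strand, so this value does not check the deletion.

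In knockout Adarb2-Reln nuclei RNA of 5 genes rose and of 0 fell, among 6279 tested (0.0796% called, edgeR quasi-likelihood with Benjamini-Hochberg adjustment over all genes tested, threshold 0.05). The 5 were P2rx7, Ube2e2, Gm26672, 3222401L13Rik and C87487, of which only the first pair encode proteins in the annotation. At an unadjusted p under 0.05 there were 411 genes (6.55%), 223 higher and 188 lower. In excitatory nuclei of the same libraries, with a far larger sum of UMIs, 286 genes rose (1.87%) and 84 fell (0.549%) of 15297 tested (2.42% called). In other GABAergic nuclei 25 rose (0.233%) and 5 fell (0.0466%) of 10728 tested (0.28% called). With each library left out in turn all 5 genes kept positive log2 fold changes, the smallest 0.80 for Ube2e2 without knockout replicate 2. Such a fit leaves 1 library in 1 genotype, so its calls do not show that the main ones hold. With no filter on low counts 38 rose and 4 fell. DESeq2 called 3 genes in the Adarb2-Reln nuclei, all among the 5. Limma-voom called 5, of which 4 were among them. Among the 134 nuclei with a Lamp5 UMI alone 0 genes were called (P2rx7 had an edgeR adjusted p of 0.0593), and among the 191 without one 2.

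Promoter windows of both coding genes are shown because these are the coding genes whose RNA rose. RefSeq windows of 250 bases before to 50 after a start were given for 2 of the 5 genes, and the most upstream start of each is printed from GRCm38.p6, 5′ to 3′ along the gene, with CG pairs in capitals. The P2rx7 window lies at chr5:122643677-122643976 on the plus strand and the Ube2e2 window at chr14:18893722-18894021 on the minus strand.
P2rx7: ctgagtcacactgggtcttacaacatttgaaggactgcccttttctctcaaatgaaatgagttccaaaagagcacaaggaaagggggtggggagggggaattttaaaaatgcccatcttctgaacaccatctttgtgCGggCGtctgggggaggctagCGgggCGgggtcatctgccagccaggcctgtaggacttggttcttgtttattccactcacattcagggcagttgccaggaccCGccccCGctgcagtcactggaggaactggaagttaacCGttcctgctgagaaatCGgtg
Ube2e2: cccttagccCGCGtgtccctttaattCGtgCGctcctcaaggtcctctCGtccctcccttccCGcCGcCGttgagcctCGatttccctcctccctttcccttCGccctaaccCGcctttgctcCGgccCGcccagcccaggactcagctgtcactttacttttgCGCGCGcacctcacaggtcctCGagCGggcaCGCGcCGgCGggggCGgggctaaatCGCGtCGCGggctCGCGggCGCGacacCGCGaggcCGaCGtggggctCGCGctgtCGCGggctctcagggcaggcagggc
The P2rx7 window holds 8 CG pairs, near the median of 7 over 32851 windows, and 48.6% of windows hold at least as many. The Ube2e2 window holds 39, a number that 4.45% of windows reach. These letters describe the windows alone, since no methylation or binding was measured here.

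P2rx7, the gene of the ATP-gated cation channel P2X7 (ENSMUSG00000029468, chr5:122643911-122691432, plus strand, protein coding, GENCODE vM21 on GRCm38), had the smallest p. The Adarb2-Reln nuclei gave 11 and 3 UMIs of it in wildtype and 74 and 53 in knockout, or 25.1 and 10.2 CPM against 185 and 203 CPM. The genotypes did not overlap (log2 fold change 3.32 ± 0.335 SE, edgeR adjusted p = 8.34e-05). The value was 4.19 without wildtype replicate 1 and 2.91 without wildtype replicate 2. A P2rx7 UMI was found in 11.2% (5.74 to 19.2) and 3.95% (0.822 to 11.1) of wildtype nuclei and in 37.4% (27.4 to 48.1) and 43.3% (30.6 to 56.8) of knockout nuclei. No nucleus held more than 7 of these UMIs in knockout or more than 1 in wildtype. In oligodendrocyte nuclei the share was 3.39% and 10.0% in wildtype and 11.1% and 7.5% in knockout, at their lower depth. With every nucleus thinned to 2000 UMIs, which left out 14 of the 325 as too shallow, the P2rx7 share was 4.12% ± 1.78 in wildtype and 30.9% ± 3.32 in knockout (SD, n = 2).

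P2rx7 also rose in the other neurons. Excitatory nuclei measured 9.30 and 7.16 CPM in wildtype and 99.6 and 66.5 CPM in knockout (log2 fold change 3.33 ± 0.218), and other GABAergic nuclei 8.16 and 10.7 against 77.5 and 81.6 CPM (3.09 ± 0.294). The difference of the genotype effect from excitatory nuclei was 0.00 log2 units (edgeR interaction, adjusted p = 1.0). No SE is given for it, since the derived SE is unreliable at a value near 0. From other GABAergic nuclei the effect differed by 0.23 ± 0.566 (edgeR interaction, adjusted p = 1.0).

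Gm26672 and 3222401L13Rik are non-coding genes in the clustered protocadherin region of chromosome 18. Gm26672 (ENSMUSG00000097330, chr18:37746559-37768242, minus strand, processed transcript) lies across from Pcdhga and Pcdhgb genes on the other strand. Its UMIs numbered 38 and 25 in wildtype and 103 and 92 in knockout, or 86.7 and 85.1 CPM against 257 and 353 CPM, with no overlap (log2 fold change 1.80 ± 0.235, edgeR adjusted p = 0.00168). It did not pass under a stricter rule (Adarb2 at least 10 UMIs, the other 4 genes at least 8; 1.54, edgeR adjusted p = 0.0958) or among nuclei with a Lamp5 UMI (1.60, adjusted p = 0.19). A UMI was found in 27.6% of nuclei in both wildtype libraries and in 60.4% and 70.0% in the knockout libraries. In oligodendrocyte nuclei the share was 8.47% to 22.2%, at their lower depth.

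3222401L13Rik (ENSMUSG00000073590, chr18:37655451-37661742, plus strand, lincRNA) was nearly absent from wildtype. It gave 0 and 2 UMIs in wildtype and 23 and 21 in knockout, a ratio of summed levels of 24.5 with an exact counting interval of 6.38 to 208 (log2 fold change 4.45 ± 0.698, edgeR adjusted p = 0.00958). The fitted value of so sparse a gene depends on the few wildtype UMIs, and it was 3.23 without wildtype replicate 1 and 7.62, on 0 wildtype UMIs, without wildtype replicate 2. A UMI was found in 0 of 98 and in 2.63% of wildtype nuclei and in 19.8% and 30.0% of knockout nuclei, against 5.08% to 10.0% of oligodendrocyte nuclei. The count of 0 allows a share of up to 3.69% (exact interval). DESeq2 and limma-voom did not call it (adjusted p = 0.213 and 0.648). Nor did edgeR under the stricter rule (3.46, adjusted p = 0.652) or among nuclei without a Lamp5 UMI (adjusted p = 0.0577). The processing notes name Cell Ranger 7.1.0 but not how strand was treated. Only if strand were ignored could UMIs of the protocadherin genes across from Gm26672 be counted as its own. 3222401L13Rik shares its strand with Gm42416, Gm37013 and Gm37388. Of the 56 clustered protocadherin genes themselves, 0 had enough UMIs here to be tested.

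Both transcripts rose in other neurons as well. Gm26672 had a log2 fold change of 1.37 ± 0.110 in excitatory and 1.76 ± 0.175 in other GABAergic nuclei, and 3222401L13Rik 4.88 ± 0.194 and 3.90 ± 0.336. The genotype effect differed from excitatory nuclei by 0.39 ± 0.244 for Gm26672 and by -0.31 ± 1.13 for 3222401L13Rik (edgeR interaction, adjusted p = 1.0 for each).

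**Figure D2:**
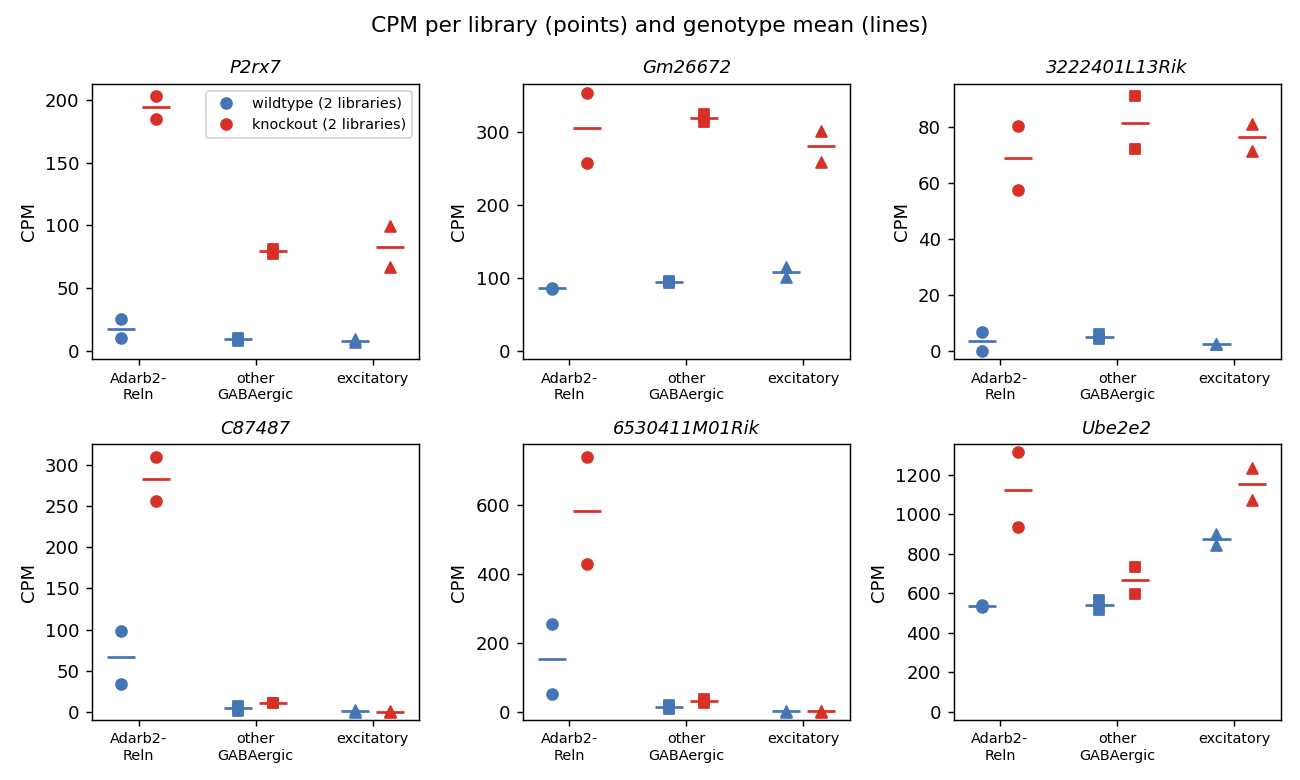
CPM of 6 genes in each library (points) with the mean of the 2 libraries of each genotype (lines), in Adarb2-Reln, other GABAergic and excitatory nuclei. P2rx7, Gm26672 and 3222401L13Rik were higher in knockout in all 3 kinds of nuclei, whereas C87487 and 6530411M01Rik were near 0 in excitatory nuclei.

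C87487 had its highest level in the Adarb2-Reln nuclei. This lincRNA gene (ENSMUSG00000117026, chr17:9189126-9223664, plus strand) gave 15 and 29 UMIs in wildtype and 124 and 67 in knockout, or 34.2 and 98.8 CPM against 310 and 257 CPM (log2 fold change 2.21 ± 0.312, edgeR adjusted p = 0.00321). Wildtype and knockout did not overlap, but the wildtype libraries were far apart. The log2 fold change was 1.54 without wildtype replicate 1 and 3.03 without wildtype replicate 2. DESeq2 did not call it (2.12, adjusted p = 1.0), nor did edgeR among nuclei with or without a Lamp5 UMI taken alone (adjusted p = 0.195 and 0.0638). In other GABAergic nuclei it measured 0.742 and 7.49 CPM in wildtype and 10.6 and 10.98 CPM in knockout. In excitatory nuclei it measured 0.163 to 1.97 CPM, and in oligodendrocyte nuclei all 4 libraries had 0 UMIs. The genotype effect differed from that in excitatory nuclei by 3.76 ± 0.858, which did not pass (edgeR interaction, adjusted p = 0.0522). In other GABAergic nuclei its log2 fold change was 1.57 ± 0.681 (edgeR adjusted p = 0.55), and the effect differed from theirs by 0.67 ± 0.706 (edgeR interaction, adjusted p = 1.0).

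Its neighbour on the chromosome, 6530411M01Rik (ENSMUSG00000097049, chr17:9147719-9167836, minus strand, lincRNA), was named after its values were seen. It gave 23 and 75 UMIs in wildtype and 296 and 112 in knockout, or 52.5 and 255 CPM against 739 and 429 CPM. It did not pass (log2 fold change 2.04 ± 0.409, edgeR adjusted p = 0.0922), although the genotypes did not overlap. Mean levels of the pair were above those of other GABAergic nuclei in both genotypes. C87487 measured 66.5 against 4.12 CPM in wildtype and 283 against 10.8 CPM in knockout, and 6530411M01Rik 154 against 13.7 CPM and 584 against 31.7 CPM.

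Most nuclei with one of the pair also held the other in knockout. In knockout replicate 1, 30 nuclei had a UMI of C87487, 41 had one of 6530411M01Rik and 29 had both. In knockout replicate 2 the numbers were 22, 23 and 19, and in wildtype they were 10, 12 and 6, and 12, 16 and 8. Either was found in 16.3% and 26.3% of wildtype nuclei and in 46.2% and 43.3% of knockout nuclei. Among nuclei with a Lamp5 UMI the share was 18.9% and 31.2% against 44.7% and 55.6%, and among nuclei without one 14.8% and 22.7% against 47.2% and 33.3%. A C87487 UMI was found in 0.086% to 0.438% of excitatory nuclei, at a median depth of 4589 UMIs.

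Nuclei with either lincRNA carried more Ndnf than the others in all 4 libraries, with 232 and 225 CPM against 56.4 and 28.5 CPM in wildtype and 144 and 168 against 45.0 and 94.4 CPM in knockout. Reln was also higher with the lincRNAs in 3 libraries (3110, 1960 and 1920 CPM against 980, 735 and 868 CPM), and in knockout replicate 2 it was 925 against 1030 CPM. Across genotypes Ndnf was 82.1 and 85.1 CPM in wildtype and 87.4 and 130 CPM in knockout, Reln 1290 and 1090 against 1310 and 989 CPM, and Kit 281 and 354 against 322 and 249 CPM. The part of the mix of nuclei in the rise of C87487 was not tested.

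Ube2e2, which encodes an E2 ubiquitin-conjugating enzyme (ENSMUSG00000058317, chr14:18573575-18894267, minus strand, protein coding), was the most abundant of the 5 genes. It gave 233 and 158 UMIs in wildtype and 374 and 343 in knockout, or 532 and 538 CPM against 934 and 1314 CPM (log2 fold change 1.07 ± 0.174, edgeR adjusted p = 0.012). Wildtype libraries were almost equal, and the knockout libraries were higher. The call was lost under the stricter rule (1.27, edgeR adjusted p = 0.112) and among nuclei with or without a Lamp5 UMI taken alone (adjusted p = 0.195 and 0.313). Single nuclei held up to 33 and 61 UMIs in the knockout libraries and up to 18 and 14 in wildtype. A UMI was present in 73.5% and 77.6% of wildtype and in 81.3% and 90.0% of knockout nuclei. In oligodendrocyte nuclei the share was 65.0% to 78.0%, at their lower depth.

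The fold change of Ube2e2 in other neurons was smaller by value. It was 0.40 ± 0.0839 in excitatory nuclei, where it rose (edgeR adjusted p = 0.0256), and 0.30 ± 0.162 in other GABAergic nuclei, where it did not pass (adjusted p = 0.66). The effect was greater in Adarb2-Reln nuclei by 0.62 ± 0.159 and 0.74 ± 0.194 log2 units, differences that did not pass over all genes tested (edgeR interaction, adjusted p = 0.172 and 0.934). Ube2e2 overlaps Gm22499 and Gm15916 on the other strand.

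**Figure D3:**
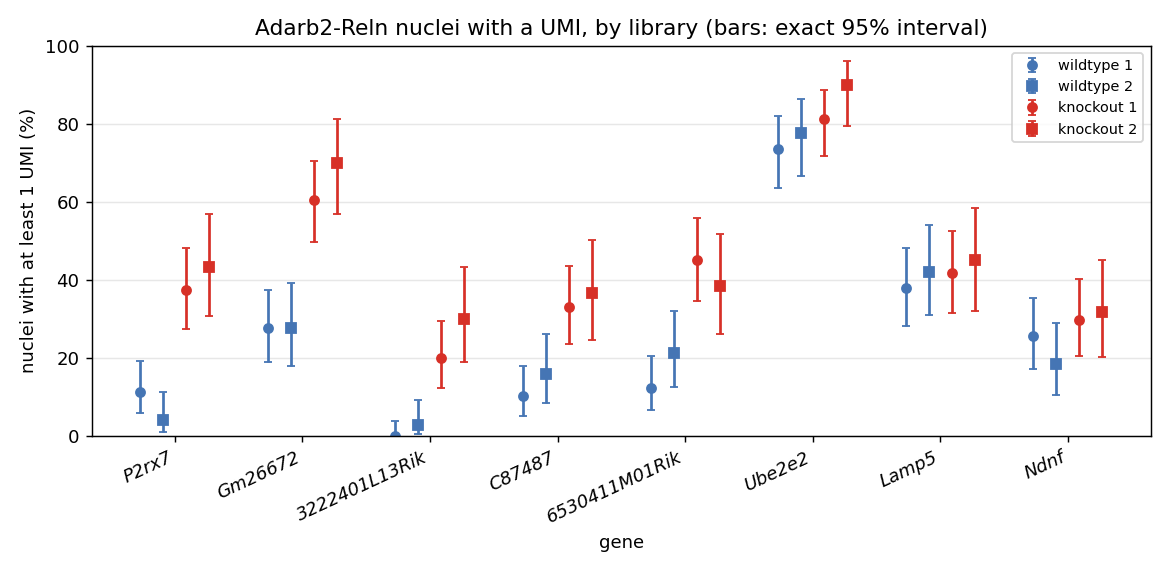
Percentage of Adarb2-Reln nuclei with at least 1 UMI of each gene, by library, with exact 95% intervals that cover counting error only. P2rx7 was found in 11.2% and 3.95% of wildtype nuclei and in 37.4% and 43.3% of knockout nuclei, while the intervals of Lamp5 and Ndnf overlap between genotypes.

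Of 28 genes that earlier results of these libraries gave as raised in excitatory neurons, 8 could be tested in the Adarb2-Reln nuclei, and 3 rose (P2rx7, Gm26672 and 3222401L13Rik), against 0.0796% of all genes. The list was chosen on these libraries, so it is not independent evidence of a direction. Its median log2 fold change was 1.88, against 0.00 over all genes tested, and 7 of 8 values were positive. Genes such as 3222401L13Rik and Zfp541 met the filter on low counts only through their knockout libraries. The filter thus favours positive values in this list. Zfp541, a zinc finger gene of male germ cells, gave 1 and 0 UMIs in wildtype and 12 and 13 in knockout (adjusted p = 0.159 by edgeR), a ratio of 27.8 with a counting interval of 4.55 to 1140. Rnf17, which encodes a protein of germ cell granules, gave 0, 12, 19 and 24 UMIs (log2 fold change 1.97 ± 0.674, adjusted p = 0.678 by edgeR). Atf7ip, the gene of a partner protein of SETDB1, measured 52.5 and 95.4 CPM in wildtype and 155 and 157 CPM in knockout (1.14 ± 0.279, adjusted p = 0.235 by edgeR). Crlf2, a cytokine receptor subunit gene, had a log2 fold change of 0.83 ± 0.479 (adjusted p = 0.815 by edgeR) against 1.92 ± 0.168 in excitatory nuclei.

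The other 20 genes of that list were too sparse for the test, and those given here were chosen after their values were seen. Gm11884 gave 1 and 0 UMIs in wildtype and 11 and 57 in knockout (ratio 75.6, counting interval 13.1 to 3030), and Stag3, a meiotic cohesin gene, gave 0, 1, 10 and 8 UMIs (ratio 20.0, 3.16 to 834). Bglap3, an osteocalcin-related gene, gave 1, 0, 9 and 8 UMIs (ratio 18.9, 2.96 to 790). Complement gene C4b gave 0 UMIs in wildtype and 4 in each knockout library. That is 2.96-fold above a floor of 3 UMIs over both wildtype libraries, with counting error in knockout left out. Xaf1 with 8 and 4 knockout UMIs and Tcfl5 with 6 and 4 were likewise at 0 UMIs in wildtype (4.45-fold and 3.71-fold above the same floor). With no filter on low counts 27 of the 28 entered the fit and 13 were called, all upward, where 38 genes rose and 4 fell of all 18504 tested.

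Of 25 genes that earlier results gave as lowered in excitatory neurons, 8 were tested, 0 passed in either direction and all 8 values were negative (median -0.42, range -1.03 to -0.03). With no filter on low counts 24 entered the fit, 6 had positive values and 0 were called (median -0.51). This list too was chosen on these libraries, so it is not independent evidence of a direction. Grm8, a presynaptic metabotropic glutamate receptor gene, measured 192 and 136 CPM in wildtype and 59.9 and 111 CPM in knockout (-1.03 ± 0.286, edgeR adjusted p = 0.415). Npas2, a transcription factor gene of the circadian clock, measured 153 and 191 against 147 and 53.7 CPM (-0.65 ± 0.307, edgeR adjusted p = 0.759), with knockout replicate 2 as the low library.

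**Figure D4:**
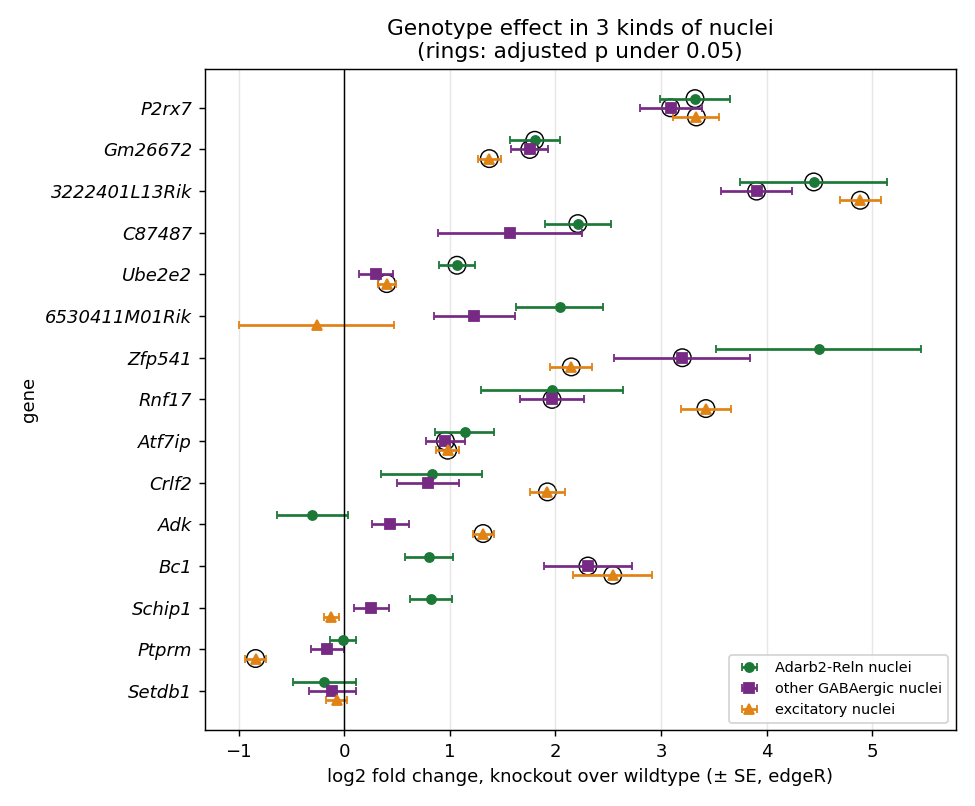
Log2 fold change of knockout over wildtype with its standard error in 3 kinds of nuclei, rings marking adjusted p under 0.05. P2rx7, Gm26672 and Atf7ip lie close together in the 3 kinds, and 3222401L13Rik is more spread but positive in each. Adk, Bc1 and Ptprm passed in excitatory nuclei and did not pass in Adarb2-Reln nuclei, where Bc1 measured 0.80 ± 0.229.

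The genotype effect differed between Adarb2-Reln and excitatory nuclei for 5 of 13981 genes (0.0358% called, edgeR interaction). It was more positive in Adarb2-Reln nuclei for 3 (0.0215%) and more negative for 2 (0.0143%). Adk, the gene of adenosine kinase, which clears adenosine, rose in excitatory nuclei from 104 and 107 CPM to 244 and 280 CPM (1.31 ± 0.100, edgeR adjusted p = 1.25e-05). In Adarb2-Reln nuclei it measured 126 and 54.5 CPM in wildtype and 82.4 and 69.0 CPM in knockout, with overlap (-0.30 ± 0.336). The difference was -1.63 ± 0.301 log2 units (edgeR adjusted p = 0.00197), and without wildtype replicate 1 it was -0.74 (adjusted p = 1.0). Without knockout replicate 2 it was -1.39 (adjusted p = 0.0592).

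Ptprm, a receptor tyrosine phosphatase gene, fell in excitatory nuclei from 123 and 131 CPM to 73.8 and 67.4 CPM (-0.84 ± 0.099, edgeR adjusted p = 0.000517). Adarb2-Reln nuclei carried far more of it, 1700 and 1945 CPM in wildtype and 1866 and 1732 CPM in knockout, and the genotypes overlapped (-0.01 ± 0.125). The difference was 0.81 ± 0.156 (edgeR adjusted p = 0.0041), and without wildtype replicate 1 or 2 the adjusted p was 0.0782 or 0.0906 at 0.82 and 0.84.

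Bc1, a short cytoplasmic RNA of neurons transcribed by RNA polymerase III, measured 422 and 597 CPM in wildtype and 1396 and 4532 CPM in knockout excitatory nuclei (2.54 ± 0.375). In Adarb2-Reln nuclei it measured 422 and 664 against 707 and 1184 CPM (0.80 ± 0.229, edgeR adjusted p = 0.448). The difference was -1.57 ± 0.171 (edgeR adjusted p = 6.99e-12), and -1.02 without knockout replicate 2, the library with the most Bc1. Oligodendrocyte nuclei measured 439 and 702 CPM in wildtype and 636 and 1059 CPM in knockout, close to the Adarb2-Reln nuclei of the same library.

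Schip1, which encodes a partner of schwannomin, measured 324 and 300 CPM in wildtype and 467 and 648 CPM in knockout Adarb2-Reln nuclei (0.83 ± 0.199, edgeR adjusted p = 0.23), and 1196, 1205, 1120 and 1086 CPM in excitatory nuclei. The difference of 0.90 ± 0.178 passed (edgeR adjusted p = 0.00421), but not without wildtype replicate 2 (0.84, adjusted p = 0.17) or knockout replicate 2 (0.71, adjusted p = 0.469). Schip1 shares its locus with the fusion gene Iqschfp on the same strand. Gm31522, a lincRNA gene, gave 0 UMIs in wildtype and 12 and 9 in knockout. That is 7.78-fold above a floor of 3 UMIs over both wildtype libraries, with counting error in knockout left out. Excitatory nuclei measured 9.14 and 7.52 CPM of it in wildtype and 6.65 and 9.50 CPM in knockout. It overlaps Gm11419 on the other strand. Its interaction passed (edgeR adjusted p = 0.00641) and did not without wildtype replicate 1 or 2 (adjusted p = 0.482 and 0.15).

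Against other GABAergic nuclei, 0 of 8936 genes differed in genotype effect (0% called, edgeR interaction), with 368 at an unadjusted p under 0.05. Without a filter on low counts 2 were called. The fixed classes of Vip nuclei (5 in all) and of Sst or Pvalb nuclei (17 in all) were too small for that comparison.

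Of 28 Lamp5 and Sncg interneuron genes 18 were tested and 0 rose or fell (median 0.02). With 0.0796% of all genes called, a count of 0 in this list or in those that follow does not set a list apart. Npy, the gene of neuropeptide Y, measured 110 and 290 CPM in wildtype and 107 and 142 CPM in knockout (-0.63 ± 0.340, edgeR adjusted p = 0.8). Without wildtype replicate 1 the Npy value was -1.23, and without wildtype replicate 2 it was 0.15. Npas1 measured 27.4 and 27.2 against 67.4 and 42.2 CPM, without overlap, but on few UMIs (12, 8, 27 and 11; edgeR adjusted p = 0.738). Cck measured 151 and 201 against 212 and 341 CPM (0.65 ± 0.243, edgeR adjusted p = 0.738). For 11 genes of GABA handling and the inhibitory synapse the median was 0.07, and for 13 GABA receptor genes -0.06, with 0 called in each.

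In the pathways around the genes of the rule 0 genes were called as well, against the same 0.0796%. Of 10 reelin pathway genes 9 were tested and 2 had positive values (median -0.23). Dab1, the adaptor that carries the reelin signal inside the cell, measured 2797 and 2874 CPM in wildtype and 2513 and 2299 CPM in knockout, without overlap (-0.23 ± 0.110, edgeR adjusted p = 0.759). Of the ErbB ligands and receptors, relatives and partners of Egfr, 4 were tested (median -0.18), and Erbb4, the neuregulin receptor of interneurons, measured 5461 and 4332 against 5410 and 4721 CPM (0.05 ± 0.110). Of 10 genes of cannabinoid signalling 8 were tested (median 0.07).

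The further lists of excitability, transmission, activity-induced and clock genes had medians from -0.42 to -0.01, against 0.00 over all genes. Of the transmission lists given above, the GABA receptors were at -0.06, and GABA handling and cannabinoid signalling at 0.07 each. The medians were -0.02 for 20 glutamate receptor genes, -0.01 for 25 potassium channel genes, -0.05 for 21 sodium and calcium channel genes, -0.03 for 24 genes of synaptic adhesion and -0.09 for 25 of presynaptic release. They were -0.06 for 10 acetylcholine and monoamine receptor genes, -0.19 for 4 neuropeptide receptor genes, -0.42 for 5 neuropeptide genes, -0.33 for 7 activity-induced genes and -0.17 for 9 clock genes. In each of these lists 0 genes rose or fell. Grin2a, an NMDA receptor subunit gene, measured 2754 and 3511 CPM in wildtype and 2318 and 2724 CPM in knockout, without overlap (-0.31 ± 0.127, edgeR adjusted p = 0.751).

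Genes tied to silent chromatin were mostly too sparse. Of 31 genes of H3K9 methylation and the HUSH silencing complex 16 were tested and 0 passed (median 0.10). Of 35 germline and meiotic genes 4 were tested, all 4 with positive values (median 1.05) and 0 called. A gene silent in wildtype, such as Zfp541, could meet the filter on low counts only through knockout libraries. The filter thus favours positive values among these 4. Of 365 genes with Zfp symbols 75 were tested (median 0.05) and of 43 imprinted genes 24 (median 0.08), with 0 called. Of 36 interferon-stimulated genes and 29 complement or MHC class I genes 0 had enough UMIs to be tested.

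**Figure D5:**
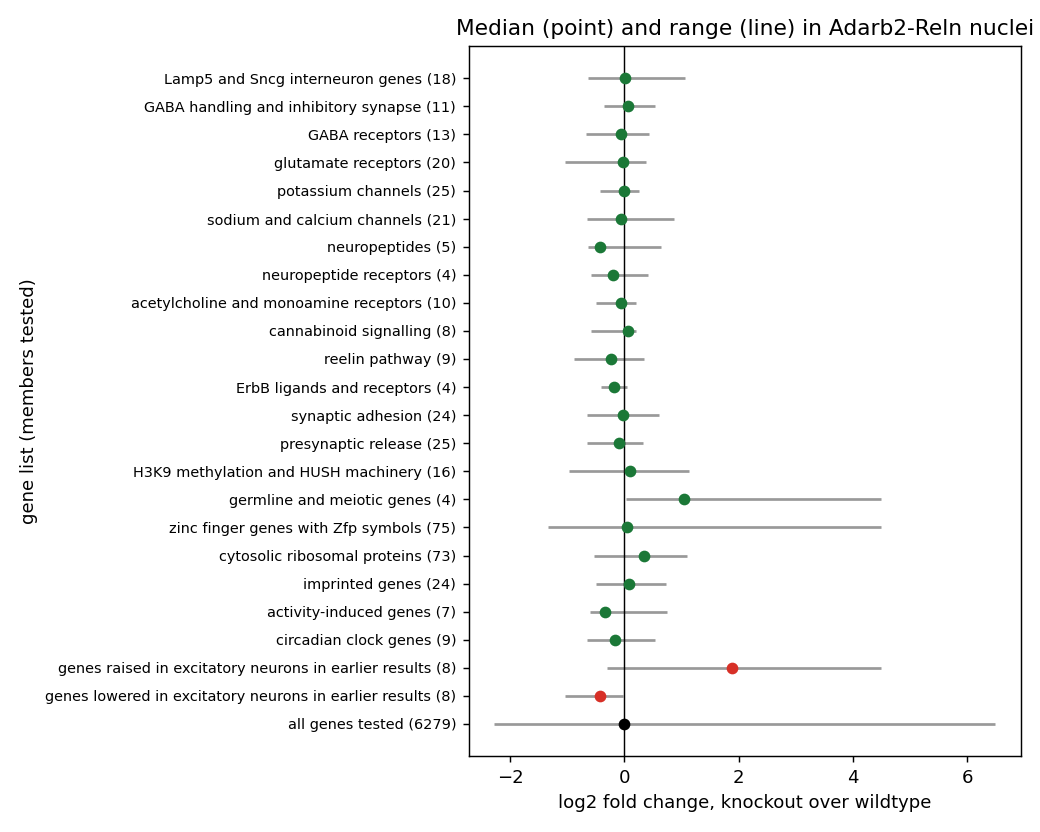
Median (point) and range (line) of log2 fold changes in Adarb2-Reln nuclei for each gene list with at least 4 genes tested, numbers tested in brackets; red points are lists from earlier results of these libraries. Most medians lie near 0, with ribosomal protein genes at 0.34 and the genes raised earlier in excitatory neurons at 1.88.

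Genes of cytosolic ribosomal proteins mostly had positive values, with 0 called. Of 73 tested, 62 had positive log2 fold changes (84.9%, against 50.2% of all genes), with a median of 0.34. Their share of all UMIs was 0.426% (Wilson 95% interval 0.407 to 0.446) and 0.451% (0.427 to 0.476) for wildtype, then 0.538% (0.516 to 0.561) and 0.541% (0.514 to 0.57) for knockout. The groups did not overlap, with a difference of 0.101 points (exact two-sided permutation p = 0.333, the smallest that 2 against 2 allows). The share was 0.385% and 0.392% against 0.532% and 0.727% in excitatory nuclei and 0.403% and 0.439% against 0.594% and 0.669% in other GABAergic nuclei. Whether these transcripts come from the nuclei or from free RNA was not tested.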

How the data were processed

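Single-nucleus RNA was measured in 4 mouse cortex libraries, 1 per animal. The values are unnormalized UMI counts deposited by the authors. The submitters' processing notes name Cell Ranger 7.1.0 and the build mm10. The treatment of intronic reads, strand and free RNA is not given in the sources used here. Nuclei that Scrublet (scanpy 1.11.5, expected rate 10%, seed 1) marked as doublets, 20 of the 325, were kept and left out in an alternative. Counts were summed per library and kind of nucleus, so depth per library limits the precision. The 12 genes of the rule and 13 mt- genes were left out of tests, since the rule fixes their range. Genes were filtered with filterByExpr (minimum count 10), scaled with TMM, and the genotype was tested by quasi-likelihood in edgeR 4.0.16 under R 4.3.3, after the script had been tested on simulated data. Standard errors (SE) were derived from each fold change and its F statistic. DESeq2 1.42.0 and limma 3.58.1 were alternatives. The members, lists and tests were chosen with earlier results of these data known. The comparison with other GABAergic nuclei and the split by Lamp5 UMIs were added after the data were seen. Genes were named where they passed, from the 4 smallest p of each list and from the 5 smallest p of each interaction, with Setdb1 always; other names are said to have been chosen later. The labels do not say how the animals of a genotype were related. Of 32285 gene identifiers 99.6% were found in GENCODE vM21, whose version may differ from the authors'. Some genes of the lists and of the rule for oligodendrocyte nuclei are not reported here by name.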

Additional observations from a re-analysis of the deposited data

Results flagged for a closer look

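The genotype effect differed between Adarb2-Reln and excitatory nuclei by a test of the difference itself for 5 genes (edgeR interaction, adjusted p under 0.05). The log2 difference, Adarb2-Reln minus excitatory, was -1.63 for Adk, -1.57 for Bc1, 0.81 for Ptprm, 0.90 for Schip1 and 9.55 for Gm31522. The value for Gm31522 is fitted on 0 wildtype UMIs and is not a measure of size. With each library left out in turn, which leaves 1 library in 1 genotype, the difference for Bc1 ran from -1.99 to -1.02. That for Adk ran from -2.05 to -0.74, for Ptprm from 0.82 to 0.86 and for Schip1 from 0.71 to 1.21.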

How the results depend on the processing

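Counts of genes that rose and fell in Adarb2-Reln nuclei (5 and 0) depended on the filter, the pairing and the nuclei taken. DESeq2 called 3 up, the stricter rule (Adarb2 at least 10, the other 4 genes at least 8) 3 and the looser rule (at least 3 each) 9. Of these calls 3, 2 and 5 were among the main 5 genes. Nuclei with a Lamp5 UMI gave 0 (of 3245 tested) and nuclei without one 2 (of 3944 tested). With no filter on low counts 38 rose and 4 fell. With each library left out, which leaves 1 library in 1 genotype, all 5 genes kept positive log2 fold changes. Libraries of 1 number deviated together only weakly (r = 0.122 over 6279 genes, 0.0322 without Xist, Tsix and Y-linked genes), and nothing in the labels pairs them. With the replicate number as a block 22 rose and 7 fell, and with the numbers crossed to pair animals of the same listed sex 16 rose. By Xist and Uty the same numbers, not the crossed ones, join libraries of 1 sex. The 5 genes passed in both block fits. As the mean of same-numbered differences, the replicate block leaves the shares where they were, at -0.633 points for Adarb2-Reln among GABAergic nuclei, 0.0763 for Lamp5-rich among Adarb2-Reln nuclei and 0.101 for the ribosomal share, and Setdb1 was -0.19 with the block.

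The interaction with excitatory nuclei gave 2 to 18 genes with a library left out, and that with other GABAergic nuclei 0 to 1, or 2 with no filter. Among nuclei of at least 5000 UMIs the share of Adarb2-Reln nuclei differed by 4.81 points and that of Lamp5-rich nuclei by 3.15, or by -0.51 with Lamp5-rich set at 5 UMIs. With each library left out these differences ran from -2.89 to 1.62 and from -1.84 to 1.99 points, and the ribosomal share from 0.0886 to 0.114. The ribosomal share of the 12 Lamp5-rich nuclei alone differed by 0.00659 points.

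Values of 27 genes that had not passed changed sign in at least 1 alternative. Among nuclei with a Lamp5 UMI these were Tmem132d (0.12), Nrg1 (0.42), Cplx1 (0.12), Kcnip3 (0.49), Chrm3 (0.14), Oprm1 (-0.17) and Erbb4 (-0.19). Among nuclei without one they were Cntnap5a (-0.0023), Tenm2 (-0.010), Rheb (-0.084), Syn3 (-0.13), Sycp2 (-0.023), Grik1 (0.19), Ptprt (0.0030), Ptprm (0.13) and Sycp3 (-0.067). Under the stricter rule they were Rtl1 (-0.27), Hcrtr2 (0.048), Vgf (0.070), Grik1 (0.083) and Ptprm (0.14), under the looser rule Sycp2 (-0.045) and with limma-voom Ptprm (0.0046). With each library left out Npy ran from -1.23 to 0.15, Adk from -0.72 to 0.50, Slc12a5 from -0.14 to 0.57, Htr2b from -0.88 to 0.046, Abhd6 from -0.090 to 0.47, Cnrip1 from -0.064 to 0.47 and Htr2c from -0.34 to 0.82. Sycp2 ran from -0.025 to 0.27, Erbb4 from -0.12 to 0.23, Ptprt from -0.26 to 0.26, Ptprm from -0.10 to 0.070, Sycp3 from -0.18 to 0.26 and Setdb1 from -0.46 to 0.10. The cause was not tested for any of these changes. Fits of Lamp5-rich or Cnr1-rich nuclei alone and interactions with Vip and with Sst or Pvalb nuclei were not run, because those classes hold 5 to 17 nuclei. Depth limits the tests to the 6279 genes that passed the filter on low counts.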
